A study of Mus musculus with 6 samples.

Results

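The enzymes that carry glucose carbon from glucose 6-phosphate to pyruvate were described in B16F10 cells, an established line of mouse melanoma, grown in either of 2 culture media. The members are the rows of the deposited expression table with the symbols Gpi1, Aldoa, Aldoc, Tpi1, Gapdh, Pgk1, Pgam1, Eno1, Eno2 and Pkm, and all 10 were found among its 21878 rows. Wild-type cells were kept in DMEM (3 libraries) or in RPMI-1640 (3 libraries), in both cases with 10% fetal bovine serum and antibiotics, at 37 °C and 5% CO2, and total RNA was sequenced at a time labelled 0. A code HG in the titles of the DMEM libraries is not explained, and the glucose content of the media is not stated. A further title code is 3 for every DMEM library and 1 for every RPMI-1640 library, so its effect and that of the medium cannot be told apart. The labels also carry a protocol for adipogenic differentiation with dexamethasone, isobutylmethylxanthine and insulin, without saying that these cells received it. B16F10 is 1 cell line, and whether the 3 libraries of each medium are separate cultures is not stated. The p-values therefore cover only the variation between these libraries, which may be technical.

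Glycolysis splits a sugar with 6 carbons into a pair of molecules with 3 carbons and oxidises each of them to pyruvate, making ATP and NADH on the way. After the committing step of phosphofructokinase, the middle and lower enzymes work close to equilibrium, are made in large amounts, and serve both glycolysis and glucose synthesis, except pyruvate kinase, whose reaction is one-way. Several are isozymes with a tissue pattern. Aldoa and Eno1 are the common forms of aldolase and enolase, Aldoc and Eno2 are the forms enriched in brain and neurons, Eno3 and Pgam2 are enriched in muscle, and Pklr is the pyruvate kinase of liver and red cells. Many genes of the pathway are known targets of hypoxia-inducible factor, and of MYC, in tumour cells.

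Expression is given as FPKM, fragments scaled to the length of the gene and to the size of the library, so levels of different genes can be set side by side per length. Reads recovered from the steps of the values came to between 36959558 and 46404391 per library. Of the melanocyte lineage markers, 7 of 8 averaged at least 1 FPKM, led by Dct at 3858 FPKM, and Ednrb was listed at 0. Their summed level ran from 12964 to 13199 FPKM in DMEM and from 10677 to 10833 FPKM in RPMI-1640. The single markers were mixed on the deposited values. Pmel (log2 fold change -0.67), Dct (-0.36) and Sox10 (-0.36) were lower in RPMI-1640 at a limma adjusted p under 0.05. Mitf (0.54) and Tyr (0.18) were higher, and Tyrp1 (-0.03) and Mlana (-0.11) did not pass. With a trend on gene length and GC content removed, as described below, Tyr (-0.38) and Tyrp1 (-0.19) were called lower. Sox10 (-0.017) was then not called and Mitf was at 0.094, while Pmel (-0.46) and Dct (-0.26) stayed lower. None of 8 adipocyte markers reached a mean of 1 FPKM, and Fabp4, Cidec, Lep and Cebpa were listed at 0 in all 6 libraries. Markers of endothelium, epithelium, neurons and skeletal muscle did not reach it either, while 1 of 6 fibroblast markers (Col1a2) and 2 of 6 macrophage and leukocyte markers (Cd68 and Lyz2) did. Col1a2 was higher in RPMI-1640, at 3.10 ± 0.349 against 0.567 ± 0.0529 FPKM (log2 fold change 1.39, limma adjusted p = 9.69e-08), and the fibroblast sum ran from 1.21 to 1.48 FPKM in DMEM and from 3.61 to 4.30 FPKM in RPMI-1640, with Dcn and Thy1 listed at 0. The macrophage and leukocyte sum ran from 4.09 to 4.38 and from 3.09 to 3.71 FPKM, with Ptprc, Adgre1 and Cd3e at 0. The part of such cells in the results was not tested. In bulk RNA, fewer cells of a type and less RNA per cell cannot be told apart.

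All 10 genes were lower in RPMI-1640 than in DMEM, and for each of them the lowest DMEM library lay above the highest RPMI-1640 library. The log2 fold changes, RPMI-1640 minus DMEM on log2(FPKM + 1), which understates the change of low genes, ran from -0.57 for Pgk1 to -4.59 for Gapdh. Their median was -1.03, beside 0.03 over all 10624 genes tested, those averaging at least 1 FPKM. Every one of the 10 passed in limma (two-sided, Benjamini-Hochberg adjusted p under 0.05 over all tested genes). Calls were common in this comparison: 76.0% of all tested genes were called, 35.4% as lower and 40.6% as higher, and 36.7% were lower with no overlap between the media. When each library was scaled to the same total, the median over all genes rose from 0.03 to 0.19 and the split became 25.0% lower and 51.5% higher, and all 10 enzymes were still called lower. The size of the falls stood further from the rest than the calls did. Of the 10 enzymes, 5 (Gpi1, Aldoc, Tpi1, Gapdh and Eno2) were called and lower by at least 1 on the log2 scale, as were 2.86% of tested genes, and 10 were lower by at least 0.5, as were 14.6%. A two-sided exact permutation test of the 3 DMEM against the 3 RPMI-1640 libraries gave p = 0.1 for each of the 10, the smallest it can give.

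**Figure D1:**
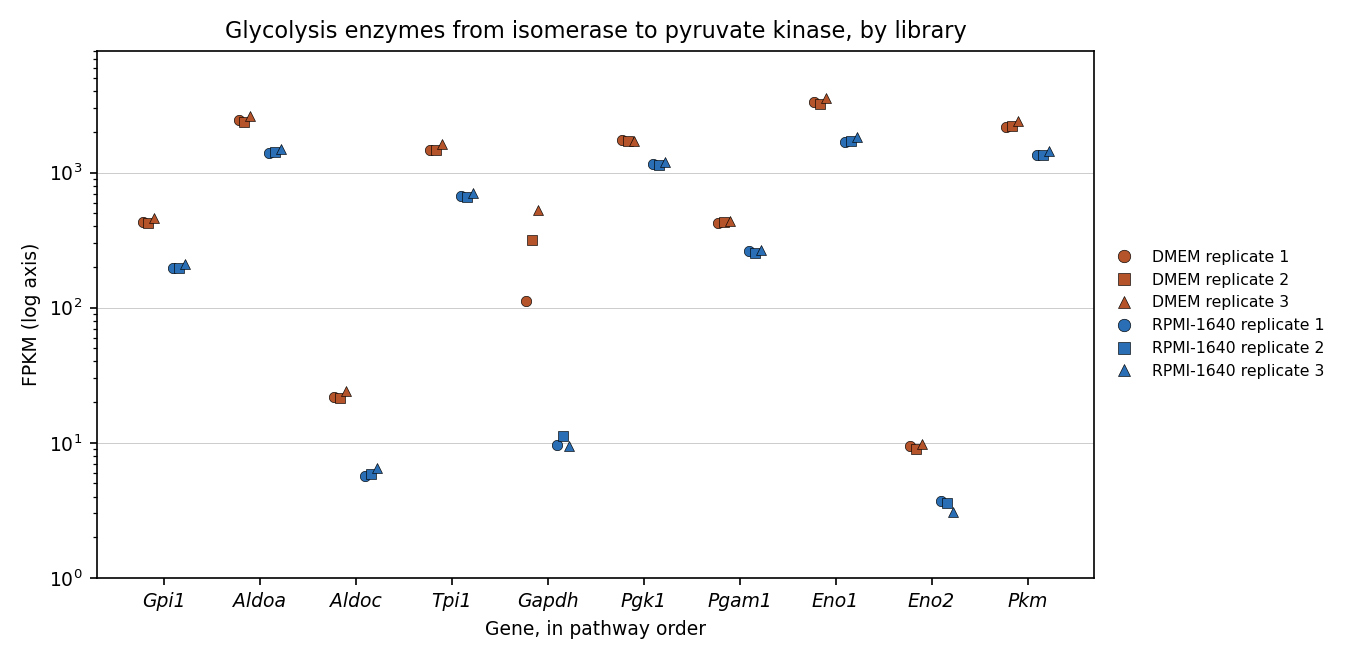
FPKM of each enzyme in each of the 6 libraries on a log axis, in pathway order, with DMEM in orange and RPMI-1640 in blue and a marker shape for each replicate number. The DMEM points lie above the RPMI-1640 points for every gene, the 3 points of a medium lie close together for all genes but Gapdh, and Gapdh in DMEM runs from 113 to 530 FPKM.

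Summed over the 10 genes, the enzymes made up 12622 ± 744 FPKM in DMEM and 6895 ± 250 FPKM in RPMI-1640 (mean ± SD, n = 3 each), 1.83-fold higher in DMEM. As a share of the recovered library total, to which FPKM is scaled, they took 2.27%, 2.27% and 2.50% in the DMEM libraries and 1.26%, 1.26% and 1.34% in the RPMI-1640 libraries. As a share of the FPKM sum of the library, the means were 2.59% and 1.59%, 1.63-fold higher in DMEM. Gapdh contributed little to the difference in summed FPKM, since the other 9 genes summed to 12302 ± 567 and 6885 ± 250 FPKM, 1.79-fold higher in DMEM. Other abundant genes also tended to be lower in RPMI-1640. Of 189 tested genes outside the list that averaged at least 321 FPKM, the lowest mean among the abundant enzymes, 70.4% were called lower and 14.8% higher, with a median log2 fold change of -0.32.

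Fold changes over all genes followed gene length and base composition, which moved with the medium. Across 10324 tested genes, which are not independent replicates, Spearman's rho of the log2 fold change was 0.467 against length and -0.487 against GC content. The enzymes stand on the side that fell, with a median length of 1828.5 bases against 2865 for tested genes and a median GC content of 54.2% against 50.1%, and 9 of the 10 were shorter and 9 of the 10 richer in GC than the median tested gene. After a trend on length and GC content was removed from each library, all 10 were still called lower, as were 36.5% of tested genes, with a median of -0.74. Then 3 of them (Aldoc, Gapdh and Eno2) were lower by at least 1, as were 1.74% of tested genes, and 7 by at least 0.5, as were 9.94%. Quantile normalization, which gives each library the same distribution of values, also left all 10 called lower, beside 37.7% of tested genes. There the falls of the most abundant enzymes were much smaller, at -0.15 for Pgk1 (limma adjusted p = 0.00941), -0.17 for Pkm (limma adjusted p = 0.00298) and -0.23 for Aldoa, while Aldoc (-1.83), Eno2 (-1.34) and Gapdh (-4.56) were little changed. The median log2 fold change of the 189 abundant genes was 0.00 on that scale.

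**Figure D2:**
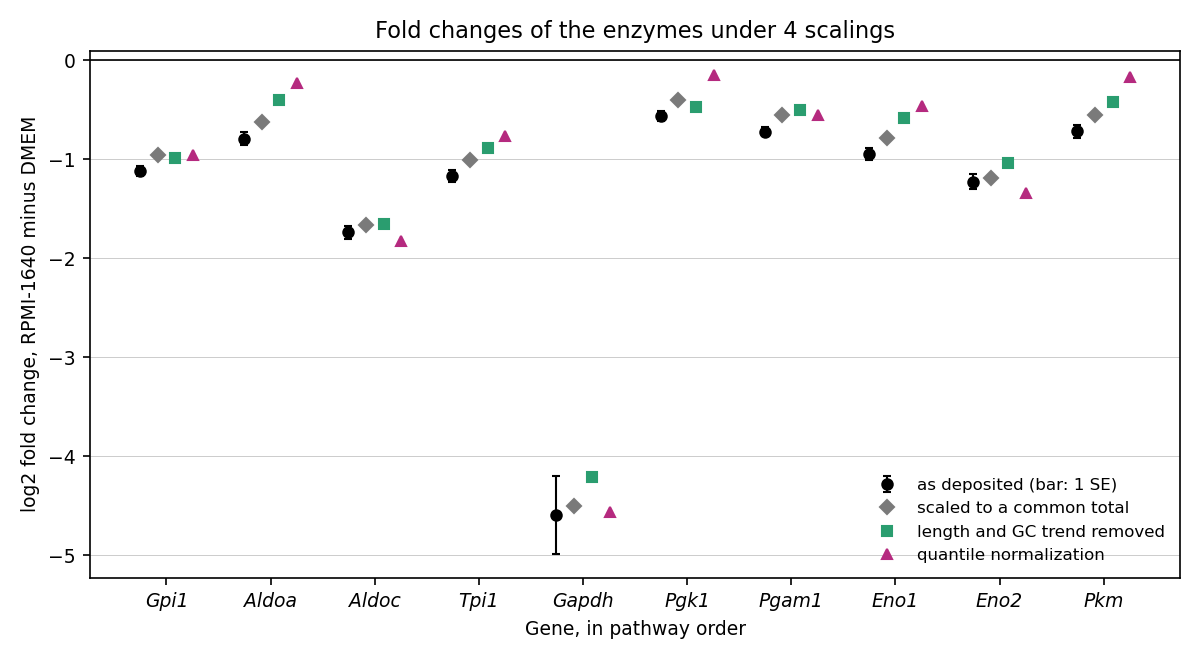
log2 fold change of each enzyme (RPMI-1640 minus DMEM) on the values as deposited, with a bar of 1 SE, and on 3 other scales. Every point lies below 0. The order of the genes with the largest falls, Gapdh and Aldoc, is the same on each scale, and Pgk1, Pkm and Aldoa come closest to 0 after quantile normalization.

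Sequence upstream of the genes was examined for short words known from the control of this pathway, since the members moved together. The letters ACGTG are the core bound by hypoxia-inducible factors, GCGTG is a variant of that core, and CACGTG is the E-box bound by MYC and related factors. In RefSeq windows of 250 bases upstream of annotated starts (GRCm38.p6, both strands), ACGTG stood in at least 1 window of 4 of the 10 genes (Aldoa, Pgk1, Pgam1 and Pkm), beside 26.2% of the 8343 tested genes with a window. GCGTG stood in 4 of the 10 (Aldoc, Gapdh, Pgam1 and Eno1), beside 52.3%, and CACGTG in 0 of the 10, beside 10.3%. ACGTG lies within CACGTG, and none of the matches in these genes does so. Over windows rather than genes, ACGTG stood in 5 of the enzymes' 16 windows and in 16.6% of all 32851 windows. The matches are shown with 20 bases on either side, 5′ to 3′ on the strand of the gene, with the core in capitals (CACGT is ACGTG on the other strand). The stretch of Pgk1 holds a pair of cores.
Aldoa, chr7:126799356-126799400, minus strand: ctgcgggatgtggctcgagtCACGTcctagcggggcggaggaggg
Pgk1, chrX:106186930-106186993, plus strand: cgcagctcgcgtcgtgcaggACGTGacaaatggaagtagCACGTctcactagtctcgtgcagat
Pgam1, chr19:41911737-41911781, plus strand: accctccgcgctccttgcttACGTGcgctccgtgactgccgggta
Pkm, chr9:59657132-59657176, plus strand: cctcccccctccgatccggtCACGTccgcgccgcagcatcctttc
The core of Aldoa begins 126 bases before an annotated start. It stands in the windows of 2 of the 3 starts of Aldoa, and both are among the 5 windows counted above. The cores of Pgk1 begin 150 and 131 bases before its start. That of Pgam1 begins 114 bases before its start and that of Pkm 75 bases before 1 of its 2 starts. These are matches of letters in a reference sequence, and binding was not measured. The 4 genes with the core had log2 fold changes between -0.57 and -0.79, and the other 6 between -0.95 and -4.59, a split seen after the values were known. After quantile normalization the ranges overlapped, with Pgam1 at -0.56 and Eno1 at -0.47.

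The upper end of this stretch of the pathway begins with Gpi1, glucose-6-phosphate isomerase, which makes fructose 6-phosphate (chromosome 7, 34201330 to 34230336, minus strand, GRCm38). The 3 DMEM libraries had 432, 423 and 464 FPKM of Gpi1, and the 3 RPMI-1640 libraries had 197, 198 and 210 FPKM. The media were far apart relative to their spread, at 440 ± 21.8 against 202 ± 7.53 FPKM, 2.18-fold higher in DMEM (log2 fold change -1.12, SE 0.052, limma adjusted p = 1.97e-08). The fall was nearly the same on every other scale shown, at -0.99 with the trend removed and -0.96 both when scaled to a common total and when quantile-normalized. It ranked 190 from the lowest among the 10624 tested genes.

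Aldoa, the common aldolase, which splits fructose 1,6-bisphosphate, lies on chromosome 7 from 126795234 to 126800751 on the minus strand. It stood at 2453, 2384 and 2649 FPKM in DMEM and at 1407, 1416 and 1497 FPKM in RPMI-1640, 1.73-fold higher in DMEM (log2 fold change -0.79, SE 0.061, limma adjusted p = 4.98e-07). Aldoc, the brain form of the same enzyme (chromosome 11, 78322968 to 78327781, plus strand), was at 21.8, 21.5 and 24.1 FPKM in DMEM and at 5.71, 5.85 and 6.53 FPKM in RPMI-1640. No RPMI-1640 library reached 7 FPKM of Aldoc and no DMEM library fell under 21 FPKM. The fold was 3.73 (log2 fold change -1.74, SE 0.069, limma adjusted p = 7.35e-09), and Aldoc ranked 22 from the lowest of all tested genes. No 32-base word of the Aldoc transcript occurs in a transcript of another gene, while 32.9% of the words of Aldoa do.

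Tpi1, triose-phosphate isomerase, which turns dihydroxyacetone phosphate, a product of aldolase, into glyceraldehyde 3-phosphate, lies on chromosome 6 from 124810586 to 124814296 on the minus strand. Its level was 1485, 1474 and 1622 FPKM in DMEM and 670, 656 and 711 FPKM in RPMI-1640. Its fall was the largest among the 5 most abundant of the enzymes, by a factor of 2.25 (1527 ± 82.3 against 679 ± 28.7 FPKM; log2 fold change -1.17, SE 0.058, limma adjusted p = 2.93e-08), and by -0.77 after quantile normalization.

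Gapdh, the dehydrogenase that oxidises glyceraldehyde 3-phosphate and makes NADH, stood apart from the rest (chromosome 6, 125161715 to 125166467, minus strand). DMEM replicates 1, 2 and 3 had 113, 315 and 530 FPKM of it, from 7841, 18037 and 38096 reads, while RPMI-1640 replicates had 9.63, 11.3 and 9.51 FPKM, from 581, 792 and 557 reads. The fold of 31.5 (log2 fold change -4.59, SE 0.39, limma adjusted p = 1.06e-06) gave it the lowest of all 10624 log2 fold changes. It changed with the DMEM libraries used, from -5.20 without DMEM replicate 1 to -4.10 without DMEM replicate 3, and lay between -4.21 and -4.56 on the 3 other scales. In every library Gapdh was far below its neighbours in the pathway, Tpi1 and Pgk1. The ratio of Gapdh to Pgk1 FPKM was 0.0652, 0.184 and 0.309 in DMEM and 0.00833, 0.00991 and 0.00794 in RPMI-1640.

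The spread of Gapdh within DMEM was also unlike that of the other enzymes. Its SD of log2 FPKM over the 3 DMEM libraries, 1.13, ranked 1 of the 766 genes averaging at least 100 FPKM, whose median was 0.0741. The coefficient of variation in DMEM was 65.3% for Gapdh and between 0.564% and 6.26% for the other 9 enzymes. In RPMI-1640 its SD of 0.125 ranked 32 of 766. Gapdh has many processed copies in the mouse genome. Of its 32-base words, 84.0% also occur in transcripts of other genes, and 156 annotated genes, 152 of them pseudogenes, hold at least 5% of its words. Only 2 of these had rows in the table, and they were low: Gapdh-ps15, which holds 60.5% of the words, was at 0.717, 0.413 and 0.589 FPKM in DMEM and 0.227, 0.354 and 0.255 FPKM in RPMI-1640, and Peli2 was under 0.04 FPKM throughout. How the counting treated reads that fit several genes is not given in the sources used here. Its part in the values of Gapdh was not tested, and the level of Gapdh is uncertain.

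Pgk1, phosphoglycerate kinase, makes the first ATP of the pathway and lies on the X chromosome from 106187100 to 106203699 on the plus strand. It was the steadiest of the enzymes, at 1734, 1717 and 1717 FPKM in DMEM and 1156, 1138 and 1198 FPKM in RPMI-1640. Its fall was the smallest on the deposited values, by a factor of 1.48 (log2 fold change -0.57, SE 0.052, limma adjusted p = 1.72e-06). With the trend removed Aldoa (-0.41) and Pkm (-0.42) fell less than Pgk1 (-0.48). Pgam1, the phosphoglycerate mutase of most tissues (chromosome 19, 41911923 to 41918660, plus strand), was at 426, 431 and 437 FPKM in DMEM and 264, 253 and 267 FPKM in RPMI-1640. Both media were tight, with 431 ± 5.46 against 261 ± 7.27 FPKM, 1.65-fold higher in DMEM (log2 fold change -0.72, SE 0.045, limma adjusted p = 1.12e-07). Of the words of Pgk1 68.3% are shared with other genes, and of those of Pgam1 42.1%, in each case with processed pseudogenes.

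Eno1, the common enolase, was the most abundant of the enzymes in both media and lies on chromosome 4 from 150236721 to 150248879 on the plus strand. It stood at 3327, 3233 and 3595 FPKM in DMEM and 1693, 1726 and 1841 FPKM in RPMI-1640, 1.93-fold higher in DMEM (log2 fold change -0.95, SE 0.065, limma adjusted p = 2.18e-07). Eno2, the neuronal enolase (chromosome 6, 124760053 to 124769673, minus strand), was the least abundant, at 9.41, 9.03 and 9.82 FPKM in DMEM and 3.69, 3.59 and 3.08 FPKM in RPMI-1640. The DMEM libraries were 2.73-fold higher (log2 fold change -1.23, SE 0.074, limma adjusted p = 9.49e-08), and only 1.6% of the words of Eno2 are shared. Neuronal markers were near 0 beside it: none of 4 reached a mean of 1 FPKM, their sum lay between 0.164 and 0.338 FPKM in DMEM and between 0.149 and 0.211 FPKM in RPMI-1640, and Snap25 was listed at 0. Eno1 shares 77.0% of its words, and Eno1b alone holds 75.3% of them, so the split of reads between these rows is uncertain.

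Pkm, pyruvate kinase of muscle and most dividing cells, makes the last ATP and pyruvate (chromosome 9, 59656368 to 59679375, plus strand). It was at 2172, 2201 and 2431 FPKM in DMEM and 1342, 1347 and 1441 FPKM in RPMI-1640, 1.65-fold higher in DMEM (log2 fold change -0.72, SE 0.063, limma adjusted p = 1.31e-06). Its transcript is spliced to contain either of a pair of exons, giving the M1 and M2 forms, and a table of 1 value per gene does not separate them. Of the proteins known to act on this choice, 4 of 4 tested were higher in RPMI-1640, beside 40.6% of all tested genes: Hnrnpa1 rose from 230 ± 16.3 to 448 ± 2.66 FPKM (log2 fold change 0.96), Hnrnpa2b1 from 314 ± 20.1 to 449 ± 18.0 FPKM (0.52), Srsf3 from 104 ± 9.47 to 143 ± 6.78 FPKM (0.46, or 0.18 with the trend removed) and Ptbp1 from 199 ± 3.86 to 232 ± 1.57 FPKM (0.22, or 0.52 with the trend removed). Rbm4 was under 1 FPKM and was not tested.

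The order of levels was nearly the same in both media. In DMEM it ran from Eno1 through Aldoa, Pkm, Pgk1 and Tpi1 to Gpi1, Pgam1 and Gapdh, and then to Aldoc and Eno2. Aldoa and Pkm overlapped, as did Gpi1, Pgam1 and Gapdh. In RPMI-1640 Aldoa and Pkm also overlapped, and Pgam1 stood above Gpi1 without overlap. The replicates numbered 3 tended to be the highest of their medium. DMEM replicate 3, the only library with the code L3 in its title, was highest in DMEM for 9 of the 10 genes, all but Pgk1, and RPMI-1640 replicate 3 was highest in its medium for 8, all but Gapdh and Eno2. With the length and GC trend removed each was highest for 7. Both libraries also had the largest FPKM sum of their medium over the whole table, at 499334 in DMEM and 439693 in RPMI-1640. How many of all tested genes were highest in them was not counted, so this is not shown to be particular to the enzymes. The labels do not explain the code L3, and its part was not tested.

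The falls were of unequal size, and the proportions among the enzymes differed between the media. Among the 7 abundant genes without Gapdh (Gpi1, Aldoa, Tpi1, Pgk1, Pgam1, Eno1 and Pkm), Tpi1 took 12.4% ± 0.107 of their summed FPKM in DMEM and 9.88% ± 0.119 in RPMI-1640 (n = 3 each). Eno1 took 27.6% ± 0.298 and 25.5% ± 0.289, and Gpi1 took 3.58% ± 0.0165 and 2.93% ± 0.00857. Pgk1 took a larger share in RPMI-1640, 16.9% ± 0.235 against 14.1% ± 0.664, as did Pkm with 20.0% ± 0.0911 against 18.5% ± 0.388. The shares of Aldoa (20.3% and 20.9%) and Pgam1 (3.52% and 3.80%) were closer between the media. None of the 7 shares overlapped between the media, and each gave p = 0.1 in the exact permutation test, the smallest possible. These shares were taken on the deposited values only. With the length and GC trend removed, Pgk1 (log2 fold change -0.48) fell more than Aldoa (-0.41) and Pkm (-0.42), so its larger share depends on the scale. Pgam1 was then at -0.51, Eno1 at -0.58, Tpi1 at -0.89 and Gpi1 at -0.99.

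**Figure D3:**
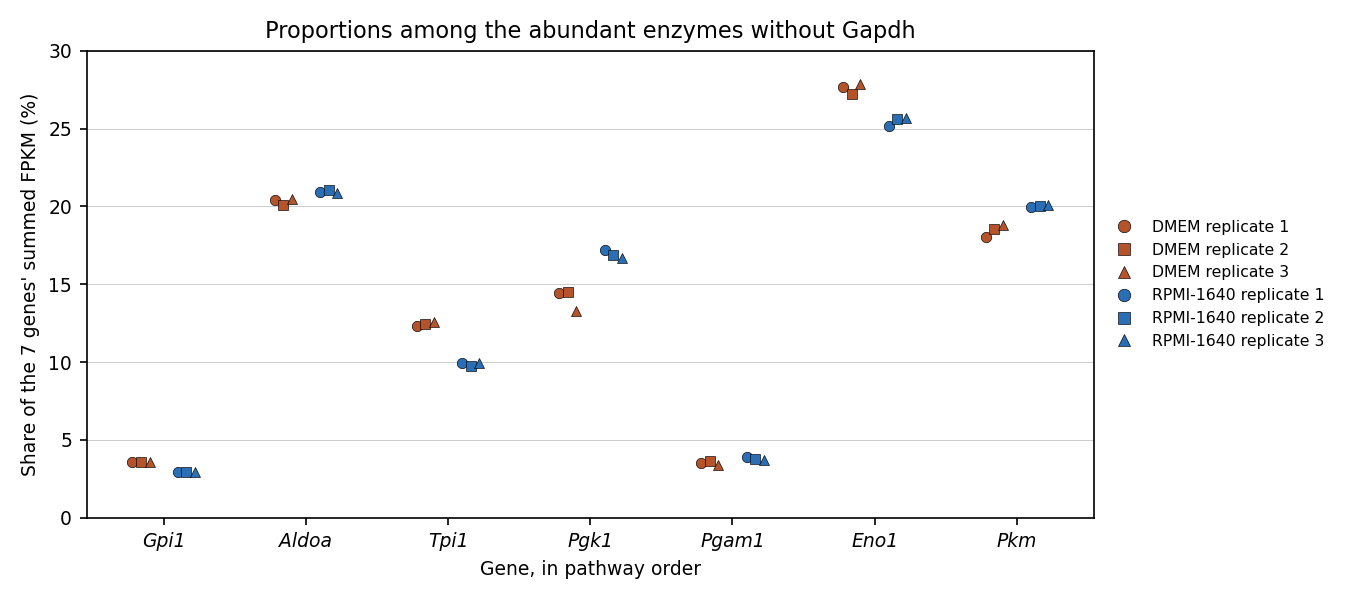
Share of each of 7 abundant enzymes in their summed FPKM (percent), by library, on the values as deposited. Tpi1, Eno1 and Gpi1 lie lower in RPMI-1640 (blue) than in DMEM (orange), and Pgk1 and Pkm lie higher.

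The same values can also be read as ratios between pairs of the enzymes. Like the shares, such ratios do not depend on the total a library is scaled to. Tpi1 stood at 0.856, 0.858 and 0.944 of the level of Pgk1 in DMEM and at 0.580, 0.576 and 0.594 in RPMI-1640. The ratio of Gpi1 to Pgam1 was 1.01, 0.980 and 1.06 in DMEM and 0.744, 0.782 and 0.789 in RPMI-1640, above 1 in 2 of the 3 DMEM libraries and under 1 in each RPMI-1640 library. Tpi1 to Aldoa went from a mean of 0.612 to 0.472 and Eno1 to Pkm from 1.49 to 1.27. These ratios did not overlap between the media, on the deposited values or with the length and GC trend removed. Aldoa to Pkm (1.10 and 1.05) and Pgk1 to Pgam1 (3.99 and 4.45) did not overlap on the deposited values but did with the trend removed.

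Within aldolase and enolase, the minor isozyme had a smaller share in RPMI-1640. Aldoc made up 0.880%, 0.895% and 0.901% of Aldoa plus Aldoc FPKM in DMEM and 0.405%, 0.412% and 0.434% in RPMI-1640, or 0.892% ± 0.0108 against 0.417% ± 0.0154. Eno2 made up 0.282%, 0.279% and 0.272% of Eno1 plus Eno2 in DMEM and 0.217%, 0.208% and 0.167% in RPMI-1640, or 0.278% ± 0.00487 against 0.197% ± 0.0266. The groups did not overlap for either share, and the exact two-sided permutation test gave p = 0.1 for both. Even in DMEM the minor forms stayed under 1% of their pair. With the trend removed the differences in share were larger, at -0.611 percentage points for Aldoc and -0.103 for Eno2, beside -0.475 and -0.0803 on the deposited values.

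**Figure D4:**
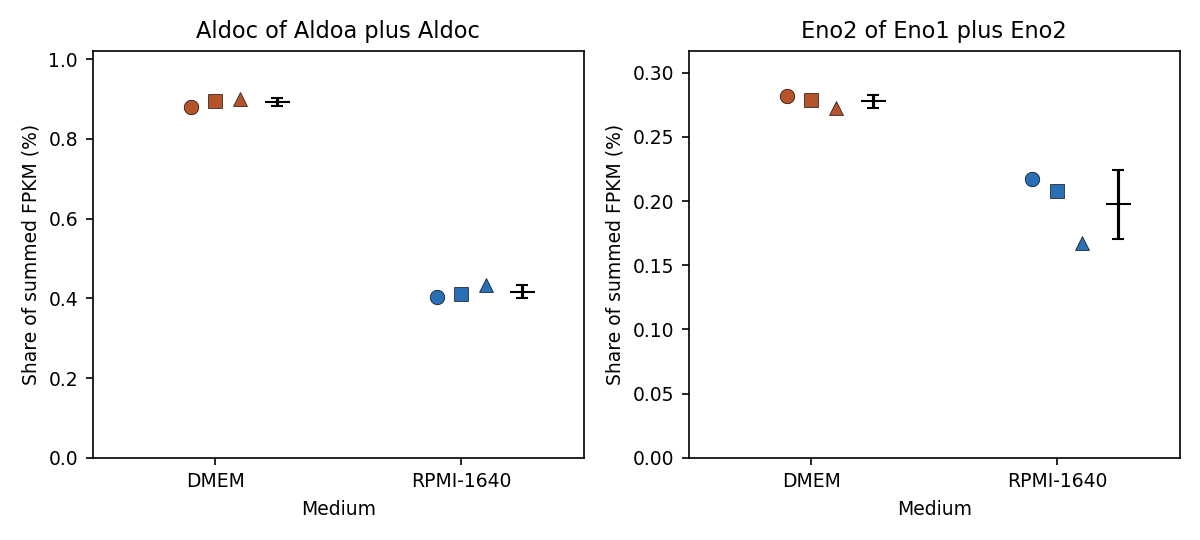
Share of Aldoc in Aldoa plus Aldoc FPKM (left) and of Eno2 in Eno1 plus Eno2 FPKM (right), in percent, for each library, with circles, squares and triangles for replicates 1, 2 and 3 and mean ± SD beside them. Both shares lie lower in the 3 RPMI-1640 libraries than in the 3 DMEM libraries.

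Of the remaining isozymes of these enzymes, none reached 5% of its family except Gapdhs. Of 9 such rows, 4 were tested, and Pgk2 and Eno4 were listed at 0 in every library. Eno3, the muscle enolase, was lower in RPMI-1640, at 14.0 ± 0.722 against 28.7 ± 0.859 FPKM (log2 fold change -0.99, limma adjusted p = 6.14e-08). Skeletal muscle markers were under 1 FPKM beside it, with a sum between 0.863 and 0.975 FPKM in DMEM and between 0.664 and 0.707 FPKM in RPMI-1640. Eno1b, a close copy of Eno1, was at 107 ± 2.93 and 63.4 ± 1.27 FPKM (log2 fold change -0.74). As shares of the 4 enolase rows, Eno3 was at 0.815% and 0.763% with overlap between the media, and Eno1b at 3.03% and 3.46% without overlap. Gapdhs, the form of sperm, was at 2.80 ± 0.105 and 2.19 ± 0.510 FPKM. It was called lower (log2 fold change -0.27, limma adjusted p = 0.0424), but the value was 0.045 with the trend removed and the call was lost without any 1 of the DMEM libraries or without RPMI-1640 replicate 3 (-0.13 to -0.29). Beside the low Gapdh of RPMI-1640 it made up 20.8%, 17.7% and 14.4% of Gapdh plus Gapdhs FPKM there, against 2.48%, 0.843% and 0.535% in DMEM. Pgam2, of muscle, was at 2.71 ± 0.0599 and 2.31 ± 0.449 FPKM and was not called (log2 fold change -0.17, limma adjusted p = 0.127). Its share of Pgam1 plus Pgam2 was 0.623% ± 0.0214 in DMEM and 0.874% ± 0.152 in RPMI-1640 without overlap, so this minor form, unlike Aldoc and Eno2, had the larger share in RPMI-1640 (exact permutation p = 0.1). Aldoart1, Aldoart2 and Pklr were under 0.1 FPKM in the mean of either medium.

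Most tested genes of the rest of the pathway were lower in RPMI-1640 as well. Over 27 further genes, the upper steps, the other isozymes and the lactate dehydrogenases, 16 were tested, of which 12 were lower, beside 35.4% of all tested genes, 3 were higher and 1 was not called, with a median log2 fold change of -0.61 (-0.44 with the trend removed, where 11 were lower and 4 higher, the added one being Pgam2 at 0.30). In the upper steps, 7 of 10 tested were lower and 3 higher. Pfkl, the liver phosphofructokinase, fell from 124 ± 8.11 to 49.9 ± 2.30 FPKM (log2 fold change -1.29), and Hk1, the hexokinase of most tissues, from 73.8 ± 3.54 to 32.3 ± 0.921 FPKM (-1.16). The genes that were higher in RPMI-1640 were Pfkfb3 (5.41 ± 0.332 against 11.0 ± 0.820 FPKM, log2 fold change 0.90) and Pfkfb2 (0.58, or 0.22 with the trend removed), which make the activator of phosphofructokinase, and Adpgk (0.47), a glucokinase that uses ADP. Pfkfb4, of the same family as Pfkfb3, was lower, at 2.41 ± 0.286 against 1.24 ± 0.205 FPKM (-0.61, or -0.46 with the trend removed). Pfkfb1 was not tested. Both tested lactate dehydrogenases, which turn pyruvate into lactate, were lower: Ldha from 1573 ± 42.4 to 1027 ± 33.1 FPKM (-0.61) and Ldhb from 168 ± 12.9 to 99.4 ± 3.99 FPKM (-0.75, or -0.44 with the trend removed).

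Enzymes that leave the pathway at the same metabolites were mixed. Of 16 side-step genes tested, 9 were lower, 3 higher and 4 not called, with a median of -0.23, beside 35.4% lower and 40.6% higher of all tested genes. Scaled to a common total, 6 were lower and 5 higher, with a median of -0.08. Pgp, a phosphatase of glycerol 3-phosphate and of toxic side products of glycolysis, fell the most, from 111 ± 15.1 to 37.2 ± 0.317 FPKM (log2 fold change -1.55). Gpd1, which makes glycerol 3-phosphate from the product of aldolase, went from 17.0 ± 0.555 to 9.70 ± 0.963 FPKM (-0.75), and Tkfc, a kinase of dihydroxyacetone and glyceraldehyde, from 10.1 ± 0.548 to 5.53 ± 0.901 FPKM (-0.77). The genes called higher were Gpd2 (0.65), the mitochondrial partner of Gpd1, Gfpt1 (0.50), which opens the hexosamine route, and Psph (0.24), the last step of serine synthesis. With the trend removed Gfpt1 was at -0.053, Gpd2 at 0.21 and Psph at 0.53. Phgdh and Psat1, which take 3-phosphoglycerate towards serine, were not called, at 429 ± 30.1 and 428 ± 20.8 FPKM for Phgdh and 170 ± 5.17 and 182 ± 2.33 FPKM for Psat1, but both were called higher on the other 3 scales. Phgdh was then at 0.16 (common total), 0.35 (trend removed) and 0.23 (quantile), and Psat1 at 0.27, 0.084 and 0.27. Of the genes that run the pathway in reverse, 3 of 7 were tested: Pcx (-0.73, or -0.40 with the trend removed) and G6pc3 (-0.56, or -0.15) were lower and Pck2 (0.26) was higher, while Pck1, Fbp1 and Fbp2 averaged under 0.1 FPKM in each medium.

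Transcripts of factors known to drive the pathway were mostly higher on the deposited values. Of 4 tested, 3 were higher in RPMI-1640, beside 40.6% of all tested genes, and 1 was not called. With the length and GC trend removed 2 were higher and 1 lower, with a median log2 fold change of 0.03. Myc rose from 10.5 ± 0.213 to 18.6 ± 0.369 FPKM (log2 fold change 0.77, limma adjusted p = 2.61e-07). Arnt, the constant partner of the hypoxia-inducible factors, rose from 17.8 ± 0.931 to 22.5 ± 1.05 FPKM (0.32, or 0.14 with the trend removed). Hif1a was called higher, at 52.6 ± 4.78 and 68.4 ± 2.87 FPKM (0.38), but was at -0.068 and not called with the length and GC trend removed. Epas1 was at 2.96 ± 0.0411 and 2.64 ± 0.0996 FPKM and was not called (-0.12), but was called lower once the trend was removed (-0.29) or quantiles were equalised (-0.22). RNA levels say nothing of the amount or activity of these proteins.

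Gapdh and Pgk1 are widely used as reference genes for scaling other measurements, and both differed between these media. Of 13 common reference genes including Pgk1, 6 were lower in RPMI-1640, 4 higher and 3 not called, with a median log2 fold change of 0.03, beside 35.4% lower and 40.6% higher of all tested genes. The balance turned when libraries were scaled to a common total or quantile-normalized, with 7 higher and 4 lower on each of these scales. Rplp0, of the ribosome, was at 2513 ± 197 and 1362 ± 78.5 FPKM (-0.88), Ywhaz at 93.1 ± 4.81 and 163 ± 4.06 FPKM (0.81) and Actb at 572 ± 43.5 and 978 ± 31.0 FPKM (0.77). These 3 kept their direction on each of the 3 other scales, and Gusb and B2m, both called lower on the deposited values (-0.13 and -0.17), did not, with Gusb at 0.019 when the trend was removed and B2m at 0.045 after quantile normalization. Sdha, Tubb5 and Ppia were not called on the deposited values (0.09, 0.03 and 0.32), but all 3 were called higher when scaled to a common total (0.25, 0.19 and 0.48) and after quantile normalization (0.22, 0.33 and 0.87).

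**Figure D5:**
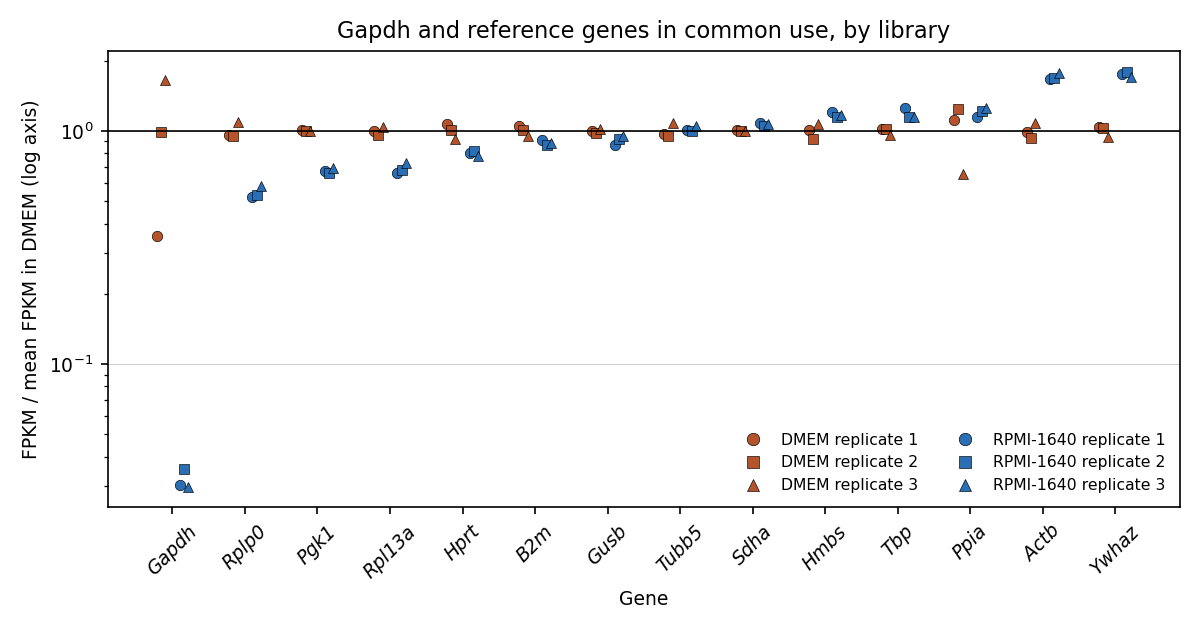
FPKM of Gapdh and of 13 reference genes in each library, divided by the mean of the DMEM libraries of that gene, on a log axis. Gapdh spans the widest range, Rplp0, Pgk1 and Rpl13a lie below 1 in the RPMI-1640 libraries, and Actb and Ywhaz lie above it.

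The genes whose profiles came closest to Gapdh and to Aldoc were found by the root mean square difference of log2(FPKM + 1) deviations from the gene mean over the 6 libraries, among tested genes averaging at least 5 FPKM. No gene was close to Gapdh: Spp1, Lgals3, Espn, Mgll and Bnip3 came nearest, with differences from 1.08 to 1.35 on the log2 scale, and their log2 fold changes ran from -2.89 to -2.28. Near neighbours of Aldoc were Mvd, Grcc10, Slc2a6, Selenbp1 and Dcxr, with differences from 0.0576 to 0.0800. The match was made on the deposited values. With the length and GC trend removed, Aldoc was at -1.66 and these neighbours fell less, from -1.43 for Mvd to -1.11 for Slc2a6. Slc2a6, a glucose transporter family member, was at 35.5 FPKM in DMEM and 11.0 FPKM in RPMI-1640, and Mvd, of cholesterol synthesis, at 33.0 and 8.49 FPKM.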

How the data were processed

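Per the labels' protocols, libraries were prepared with a SMARTer kit from 2 µg of Trizol-extracted total RNA. The authors deposited FPKM per gene and library, per the file headers. The submitters' processing notes name GRCm38 and mm10, and the name of an aligner, counting tool, annotation or strand setting is not given in the sources used here. The members, gene lists and rules were chosen with earlier results of these data known.

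FPKM values were used as deposited. Genes averaging at least 1 FPKM (10624 of 21878, with 6308 at 0 throughout) were fitted with limma 3.58.1 (R 4.3.3, lmFit and eBayes with a trend) on log2(FPKM + 1), medium as the only term, and called at a Benjamini-Hochberg adjusted p under 0.05. Whole reads were recovered from the FPKM steps for all 10624 tested genes (within 0.01 reads). Positions, GC content and shared 32-base words come from GENCODE M21 (GRCm38, longest coding transcript), with GC content for 97.2% of tested genes. The trend was fitted to each library as natural splines (5 degrees of freedom each) of log2 length and GC content. Promoter windows come from RefSeq (GRCm38.p6). Python 3.11.15, pandas 2.3.3, numpy 2.4.6, scipy 1.17.1 and matplotlib 3.10.9 were used.

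Named besides the 10 members were every other isozyme, up to 3 called genes with the largest change of each list, the 5 nearest profiles of Gapdh and Aldoc, and annotated copies. Further genes of the lists were named with their values in view. The 2 media share replicate numbers 1 to 3. Deviations from the group means correlated at 0.151, 0.150 and 0.382 between libraries of the same number. All were over 0.1, the rule used for taking the numbers as pairs, from the data alone. Pairs were used only in the replicate block and the sign-flip test, while the main fit and the permutation tests were unpaired. Libraries of different numbers came close, at 0.131 (DMEM 1 with RPMI-1640 2) and 0.137 (DMEM 2 with RPMI-1640 1). With the trend removed the correlations were 0.0498, 0.0375 and 0.137, and the rule was not met. Some results are left out of the lists and are not reported here.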

Additional observations from a re-analysis of the deposited data

How the results depend on the processing

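The 10 enzymes kept their direction and their call in limma under all 18 alternatives in which they were tested, 177 of 177 values; Gapdh, Pgk1 and Eno1 were not tested where genes sharing over 50% of their words were left out (7 of 7 then called lower). The number of genes called ran from 6555 (mean of at least 5 FPKM) to 8968 (no filter on low values), beside 8078, and the other glycolysis genes called from 13 to 16, beside 15. The median log2 fold change of the members, -1.035, moved by more than the spread between replicates when libraries were scaled to a common total (-0.872), after quantile normalization (-0.662), with the length and GC trend removed (-0.737, also with the replicate block) and without genes of shared sequence (-1.121, over fewer genes). Apart from the last, the cause was not tested. With the replicate block alone it was -1.035, and 8432 genes, all 10 members among them, were called; the block changed no call among the 33 other genes that the naming rule chose. Paired by replicate number, the isozyme shares gave p = 0.25 in an exact sign-flip test, the smallest that 3 pairs allow.

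With the trend removed, Gapdhs turned to 0.045 and Hif1a to -0.068, with the replicate block as well. Of 590 values of 33 other named genes, 578 kept direction and call, 8 lost the call, all of them Gapdhs, and these 4 changed sign. Leaving out a library gave 7454 to 8011 called genes and a median of -1.068 to -0.993, and differences in share from -0.484 to -0.469 percentage points for Aldoc and from -0.0902 to -0.0652 for Eno2. In shares of reads, not scaled to length, the differences were -0.807 and -0.120. The planned count tests were not run, since the deposited unit is FPKM. In their place voom on the recovered reads, added after seeing the data, called 8085 genes and all 10 members (median -1.038).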

Other observations

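Gapdh was not alone in varying within DMEM. Among the 766 genes averaging at least 100 FPKM, the next largest SDs of log2 FPKM over the DMEM libraries were those of Rpl17 (0.732) and Rpl7a (0.609), of the ribosome, and Ppia (0.496), a reference gene. Rpl17 stood at 64.6, 56.9 and 146 FPKM in DMEM and 206, 74.8 and 72.4 FPKM in RPMI-1640. Rpl7a stood at 281, 282 and 586 FPKM in DMEM and 344, 289 and 334 FPKM in RPMI-1640. Ppia stood at 2622, 2906 and 1532 FPKM in DMEM and 2686, 2871 and 2944 FPKM in RPMI-1640. Of the 10 genes with the largest SD in DMEM, 5 share over 50% of their 32-base words with other genes, beside 11.7% of the 766. For Rpl17, Rpl7a and Ppia, the DMEM library that stood apart was replicate 3, the only one with the code L3. Among the 10 it was replicate 2 for Ppp1r14b (202, 140 and 199 FPKM) and replicate 1 for Rps27rt (138, 96.0 and 97.8 FPKM). All these genes were chosen for their spread, and its cause, with any part of the code L3, was not tested.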
